A study of Homo sapiens with 2 samples.

Results

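The genes followed here were 10 feedback inhibitors of mitogen-activated protein kinase (MAPK) signalling, of 44591 genes in the count table. They were the 7 dual-specificity phosphatase genes DUSP1, DUSP4, DUSP5, DUSP6, DUSP8, DUSP10 and DUSP16, the Sprouty genes SPRY2 and SPRY4, and the Sprouty-related gene SPRED1. The list was set by gene name and family, with no threshold on a measured value, but with earlier results of these data known. RNA was sequenced from HSC-1 cells, a cell line from a cutaneous squamous cell carcinoma (cSCC), transfected with a control siRNA (siNC) or with siRNA against the long noncoding RNA LINP1 (siLINP1). Both groups were the same line and received siRNA at about 70% confluency, then 6 h of DMEM lacking serum and 24 h of DMEM with 10% serum, as the labels give it, while the study's methods give a different confluency and time of RNA extraction. The comparison asks which transcripts differ after depletion of LINP1. Each group had 1 library, so no difference below has a replicate check, no test was possible and no p-value is given. The siLINP1 oligonucleotide that was sequenced is not named in the sources used here.

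MAPK pathways pass signals from receptors through small GTPases and a relay of kinases to ERK, JNK or p38. Dual-specificity MAPK phosphatases switch these kinases off by removing phosphate from both the threonine and the tyrosine of the activation loop, while Sprouty and Spred proteins act further upstream, between receptor tyrosine kinases and Raf. Many of their genes are themselves transcribed in response to ERK activity, which makes them negative feedback loops, and in keratinocytes and squamous carcinoma cells ERK signalling downstream of the EGF receptor is a well-known driver of proliferation.

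Reads counted on genes came to 18829544 for siNC and 15383081 for siLINP1. Median-of-ratios size factors of 1.08 and 0.930 put the libraries on a common scale. A gene was tested if its reads in siNC and siLINP1 added up to 10 or more, which left 19840 genes and all 10 inhibitors. LINP1 had 167 reads in siNC and 23 in siLINP1, a log2 fold change of -2.65 (95% interval -3.35 to -2.02). Among 12 markers of squamous keratinocytes, 5 were under 1 RPKM in both libraries, among them KRT5 at 32 and 24 reads and TP63 at 6 and 8 reads, while ITGB4, an integrin of basal cells, had 5990 and 3962 reads. Their summed level was 112 RPKM in siNC and 99.9 RPKM in siLINP1, and the median log2 fold change was -0.18. Of the 12, 2 were more than 1.5-fold higher and 3 lower, against 14.4% and 13.0% of all genes. Of the 7 with at least 100 reads, 0 were higher by this limit and 2 lower. KRT14, a basal keratin, was the 1 marker of these with its whole interval past 1.5-fold, at 243 and 87 reads (log2 fold change -1.27, interval -1.64 to -0.91). Of 10 mesenchymal markers, 3 were under 1 RPKM in both libraries and THY1 had 1 and 0 reads, while VIM reached 61097 and 41992 reads. The mesenchymal sum was 2654 RPKM in siNC and 2084 RPKM in siLINP1. Of the 9 mesenchymal markers tested, 8 had fewer scaled reads in siLINP1, with a median log2 fold change of -0.48. The whole interval lay below 0 for 7 of the 9 and for 5081 of all 19840 genes. More than 1.5-fold higher was 1 marker and lower were 3, against 14.4% and 13.0% of all genes. Of the 7 markers with at least 100 reads, 0 were higher by this limit and 3 lower. COL1A1, a fibrillar collagen, and S100A4, a calcium-binding protein, had log2 fold changes of -1.06 (-1.45 to -0.67) and -0.66 (-0.72 to -0.60). These were the 2 with the whole interval past 1.5-fold, and scaling by the total count left 1. The part of these marker differences in the results below was not tested.

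Of the 10 feedback inhibitors, 9 had more scaled reads in siLINP1 than in siNC, as did 9487 of all 19840 genes. More than 1.5-fold higher were 4 inhibitors, DUSP8, DUSP1, DUSP5 and SPRY2. Among all 19840 genes, 14.4% were more than 1.5-fold higher. In the other direction 0 of the 10 were more than 1.5-fold lower, against 13.0% of all genes. The interval attached to each log2 fold change is a 95% Clopper-Pearson interval, taken on the share of a gene's reads that fell in siLINP1, and it covers counting error only. For these 4 inhibitors the whole interval lay above 1.5-fold, a position held by 3.98% of all genes, and for 0 of the 10 it lay below a 1.5-fold decrease, against 2.06% of all genes. The interval lay wholly above 0 for 8 of the 10 (23.0% of all genes), wholly below 0 for DUSP4, and across 0 for SPRED1. DUSP8 alone was more than 2-fold higher, against 6.74% of all genes, and at 1.94-fold it was not when its reads were summed with those of its pseudogenes. The median log2 fold change was 0.53 over the 10 inhibitors and -0.02 over all genes, and 0.47 over the 7 phosphatases and 0.58 over the 3 Sprouty and Spred genes. All 10 had at least 100 reads. Among the 13336 genes with that many reads, 8.72% were more than 1.5-fold higher, 4.18% had the whole interval above 1.5-fold and 28.8% had it above 0. More scaled reads in siLINP1 were found for 6237 of these 13336 genes. In RNA from a whole culture, a transcript present in fewer cells and less of the transcript per cell cannot be told apart.

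**Figure D1:**
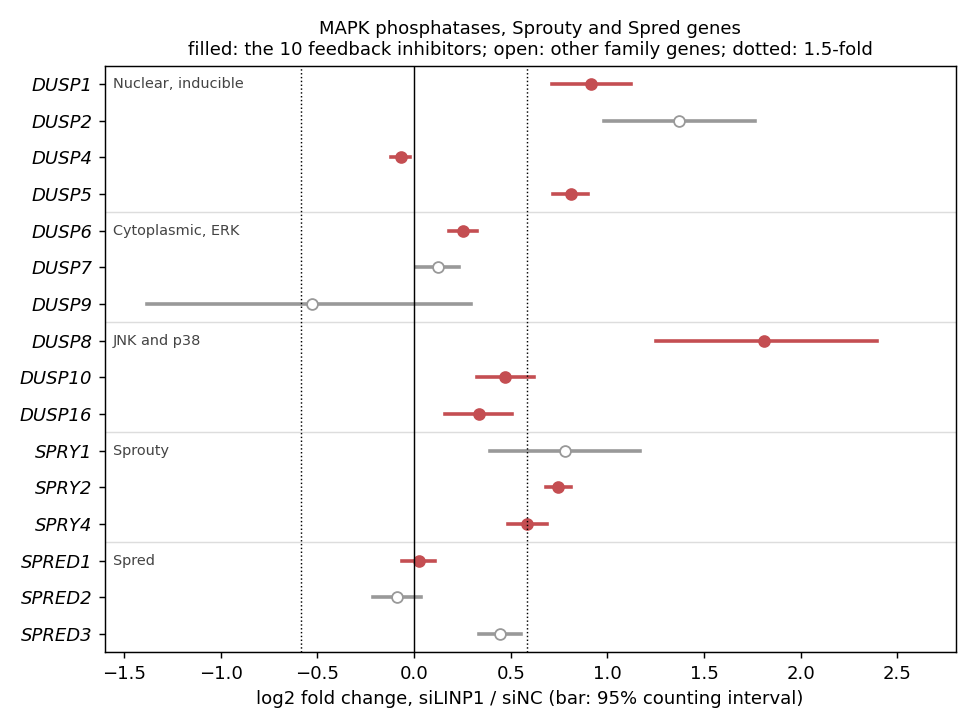
The log2 fold change of siLINP1 over siNC (horizontal axis) is drawn for the 10 inhibitors (filled points) and 6 other genes of the same families (open points), grouped by type, with bars for the 95% counting interval and dotted lines at 1.5-fold in either direction. DUSP8 lies farthest right at 1.81 with the widest bar of the 10, while DUSP4 and SPRED1 lie at -0.07 and 0.02 with narrow bars.

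DUSP1, the inducible nuclear phosphatase also known as MKP-1, acts on p38, JNK and ERK and is a classic immediate early gene. The siNC library held 326 of its reads and the siLINP1 library 532, or 303 and 572 scaled reads, at 8.55 RPKM and 17.1 RPKM. The log2 fold change of 0.92 (interval 0.71 to 1.12), or 1.89-fold, exceeded those of 92.4% of all genes and 96.8% of genes with at least 100 reads. The count table places DUSP1 on the minus strand at chr5:172195093-172198203 of GRCh37. A noncoding gene that overlaps it on the opposite strand had 0 reads and 1 read. How reads that fall on both genes were counted is not given in the sources used here. The 250 bases before the RefSeq start site of DUSP1 (chr5:172771196-172771445, minus strand, GRCh38.p14) are shown because they hold the palindromic cyclic AMP response element, CRE, and a TATA box, both in capitals.
DUSP1: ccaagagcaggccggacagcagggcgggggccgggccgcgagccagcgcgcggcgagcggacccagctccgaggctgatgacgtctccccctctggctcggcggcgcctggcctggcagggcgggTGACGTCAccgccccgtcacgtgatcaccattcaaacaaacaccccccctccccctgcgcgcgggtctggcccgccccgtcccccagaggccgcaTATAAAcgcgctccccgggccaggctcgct
The CRE, TGACGTCA, lies from -125 to -118 and the TATA box, TATAAA, from -30 to -25 relative to the start.

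The DUSP1 transcript has a short 3′UTR of 666 bases with 4 copies of ATTTA, the core of AU-rich elements, which many short-lived messages carry. That is 6.01 per kb, more than in 94.6% of 13578 genes tested that have an annotated 3′UTR. A pair of these copies overlap at chr5:172195654-172195682 (minus strand, GRCh37), shown with both copies in capitals.
DUSP1 3′UTR: gctcgagagggctggtccttATTTATTTA
Of the 10 inhibitors, 9 held at least 1 ATTTA, DUSP5 being the exception, against 72.4% of those genes. Their median density was 2.18 per kb beside 1.69 for all, and 6 of the 10 lay above that median. The median 3′UTR of the 10 was 2243 bases beside 1301 for all, and a longer 3′UTR has more room for a copy. The highest number was in SPRED1, 24 copies in 5585 bases or 4.30 per kb, although its scaled reads were almost equal in the libraries (2251 and 2288). Each of the 10 had fewer exons than the median gene, with a median of 4 beside 9.

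DUSP5, a nuclear phosphatase specific for ERK that also holds it in the nucleus, was among the more abundant of the 10. It had 1625 reads (34.1 RPKM) in siNC against 2465 reads (63.4 RPKM) in siLINP1. The log2 fold change of 0.81 (interval 0.72 to 0.90) made it 1.75-fold higher in siLINP1. This took it from the fourth to the second highest level of the 10. DUSP5 lies on the plus strand at chr10:112257625-112271302. Its pseudogene DUSP5P1 had 45 and 56 reads, and summing them with those of DUSP5 gave a log2 fold change of 0.80.

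DUSP4, or MKP-2, a close relative of DUSP1 and likewise nuclear and inducible, did not share this direction. The gene lies on the minus strand of chromosome 8 from 29190579 to 29208267. It had the most reads of the 10, 7383 in siNC against 6087 in siLINP1, at 53.4 RPKM and 53.9 RPKM. On scaled reads its log2 fold change was -0.07 (interval -0.12 to -0.02), while scaling by the total count gave 0.013, so its direction depends on the scaling. Either value is far from 1.5-fold, and 45.7% of all genes lay below it. DUSP2, the other inducible nuclear phosphatase, which is best known from immune cells, had 82 reads in siNC and 183 in siLINP1 (log2 fold change 1.37, interval 0.98 to 1.76). DUSP2 is outside the list of 10. With DUSP2 counted, 3 of the 4 nuclear inducible phosphatases were more than 1.5-fold higher, and DUSP4 was not. This compares with 14.4% of all genes and 8.72% of genes with at least 100 reads. The median log2 fold change of the 4 was 0.86. DUSP4 had the highest level of the 4 in siNC, and DUSP5 had it in siLINP1.

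DUSP6, or MKP-3, is the cytoplasmic phosphatase that dephosphorylates ERK with high selectivity and is widely read as an output of ERK signalling. It had 3040 reads (47.6 RPKM) in siNC against 3134 reads (60.0 RPKM) in siLINP1. With the deeper siNC library taken into account the log2 fold change was 0.25 (interval 0.18 to 0.33), or 1.19-fold, a value above those of 71.7% of all genes. DUSP6 lies on the minus strand at chr12:89741602-89746636. Its cytoplasmic relatives DUSP7 and DUSP9 had 1349 and 1269 reads (log2 fold change 0.12, interval 0.01 to 0.23) and 35 and 21 reads (-0.53, -1.38 to 0.29). None of these 3 ERK-selective phosphatases was past 1.5-fold in either direction, beside 14.4% of all genes higher and 13.0% lower.

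The remaining phosphatases act chiefly on JNK and p38. DUSP8, also called M3/6, is known mainly from brain and heart, and it was the scarcest of the 10 in both libraries. Its reads numbered 36 in siNC against 109 in siLINP1, at 0.427 RPKM and 1.58 RPKM. Its log2 fold change of 1.81 (interval 1.25 to 2.39), or 3.50-fold, exceeded those of 98.0% of all genes, and 405 genes had a higher value. Even in siLINP1 its level was below that of each of the other 9. DUSP8 is on the study's own list of genes that differ between these same libraries, as is DUSP2, so that listing is not independent evidence. Pseudogene copies limit this value. The pseudogene DUSP8P5 had 66 and 61 reads, DUSP8P3 0 and 0, and DUSP8P4 0 and 1, and how reads shared between copies were assigned is not given in the sources used here. With the reads of DUSP8 and its 3 pseudogenes summed, 102 in siNC and 171 in siLINP1, the log2 fold change was 0.95 (interval 0.59 to 1.32), or 1.94-fold.

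DUSP8 lies on the minus strand at chr11:1575281-1593150 of GRCh37. The 250 bases before its RefSeq start site (chr11:1572272-1572521, minus strand, GRCh38.p14) hold 2 CRE palindromes, in capitals, from -118 to -111 and from -74 to -67.
DUSP8: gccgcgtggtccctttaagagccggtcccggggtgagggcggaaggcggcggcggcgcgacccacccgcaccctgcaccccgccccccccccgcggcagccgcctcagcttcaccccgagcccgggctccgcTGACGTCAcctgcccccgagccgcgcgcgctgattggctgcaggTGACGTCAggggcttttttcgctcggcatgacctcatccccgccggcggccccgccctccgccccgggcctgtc
Both strands of a window from 250 bases before to 50 after the start were searched in 35116 RefSeq promoters, which included those of 8 of the 10 inhibitors. TGACGTCA was present in 1.85% of all promoters and in those of 2 of the 8 inhibitors, DUSP1 and DUSP8. The first 5 letters of it, TGACG, which every full CRE contains, were present in 24.6% of all promoters and in at least 1 promoter of 5 of the 8 genes, the others being DUSP10, SPRY2 and SPRY4. DUSP10 and SPRY2 have several start sites in the table, and TGACG was in 5 of the 11 promoters of the 8 genes. TATAAA was present in 11.5% of all promoters and in DUSP1 only. The AP-1 letters TGANTCA (7.71%), the ETS letters CCGGAAG (10.3%), the CArG box (1.29%) and the NF-kB motif (5.91%) were in 0 of the 8. These matches describe letters in the window and no binding was measured. The G and C content of the DUSP1 and DUSP8 windows was 73.3% and 78.3%, beside a median of 58.7% over all promoters, and windows without a CRE reached similar values, 76.3% for SPRED1 and 73.3% for DUSP16.

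DUSP10 (MKP-5) and DUSP16 (MKP-7), which also act on JNK and p38, differed less between the libraries. DUSP10 had 685 reads in siNC against 821 in siLINP1, at 13.3 RPKM and 19.5 RPKM, with a log2 fold change of 0.47 (interval 0.32 to 0.62), or 1.39-fold. DUSP16 had 534 and 582 reads, at 4.49 RPKM and 5.99 RPKM, with a log2 fold change of 0.33 (interval 0.16 to 0.51), or 1.26-fold. Both intervals lay above 0 and both values were under 1.5-fold. The genes lie on the minus strand at chr1:221874762-221915518 and chr12:12626216-12715448, and a noncoding gene opposite DUSP16 had 3 reads and 1 read. Like DUSP1, the 3′UTRs of DUSP8 and DUSP10 each held a pair of overlapping ATTTA copies, shown in capitals, at chr11:1577612-1577640 and chr1:221874853-221874881 (both minus strand, GRCh37).
DUSP8 3′UTR: agtaaatatttcgattttttATTTATTTA
DUSP10 3′UTR: tcagaatgtaagaaaaaaaaATTTATTTA
The folds of the 3 genes shown with this pair were 1.89 for DUSP1, 3.50 for DUSP8 (1.94 with its pseudogenes) and 1.39 for DUSP10. Only the first window of 29 bases with the most copies was taken from a gene. No window held more than 1 copy in DUSP5 (1.75-fold), SPRY2 (1.68-fold), SPRY4 (1.5-fold) or DUSP6 (1.19-fold), so these genes lack the pair. A relation between the pair and the folds was not tested. The windows of DUSP16 (1.26-fold) and SPRED1 (1.02-fold) had 2 copies that do not overlap, and the rest of their 3′UTRs was not searched for a pair. No window was taken from DUSP4 (0.95-fold).

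Sprouty proteins are induced by growth factor receptors and block Ras and Raf activation. SPRY2 had 3155 reads in siNC against 4574 in siLINP1, at 48.5 RPKM and 86.1 RPKM, which made it the most abundant of the 10 per length in siLINP1. The log2 fold change of 0.75 (interval 0.68 to 0.81), or 1.68-fold, had the narrowest interval of the 4 inhibitors that were past 1.5-fold. SPRY4 had 1406 and 1824 reads, at 13.5 RPKM and 21.4 RPKM, with a log2 fold change of 0.58 (interval 0.48 to 0.69). This equals 1.5-fold, so SPRY4 was not counted as past the limit, and it passed when counts were scaled by total count, by TMM factors or over protein-coding genes only, which made 5 of 10. The genes lie on the minus strand at chr13:80910111-80915250 and chr5:141689992-141704620. SPRY4-IT1, a noncoding gene inside SPRY4 on the same strand, had 19 and 21 reads, few beside those of SPRY4. SPRY1, outside the list, had 95 and 141 reads (log2 fold change 0.78, interval 0.39 to 1.17), so the 3 Sprouty genes tested were higher in siLINP1, while SPRY3 had 1 and 2 reads and was not tested.

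SPRED1, which recruits the Ras GTPase-activating protein neurofibromin to the membrane, had 2420 reads (17.7 RPKM) in siNC against 2128 reads (19.1 RPKM) in siLINP1. The log2 fold change of 0.02 had an interval from -0.06 to 0.11, which holds 0 and lies inside 1.5-fold on both sides. SPRED1 lies on the plus strand at chr15:38545052-38649450. SPRED2, its close relative, had 1180 and 961 reads (-0.09, -0.21 to 0.04). SPRED3 had 1282 and 1506 reads and stood higher (0.44, 0.33 to 0.55). Within these families the Sprouty genes therefore lay between 0.58 and 0.78 on the log2 scale and the Spred genes between -0.09 and 0.44, a separation without a test.

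The order of the levels differed between the libraries. RPKM is the read count per kilobase of gene length, scaled to library size, and the neighbours in this order were compared by the exact 95% Poisson interval of each level. In siNC the order from the top was DUSP4, SPRY2, DUSP6, DUSP5, SPRED1, SPRY4, DUSP10, DUSP1, DUSP16 and DUSP8. There SPRY2 and DUSP6, and SPRY4 and DUSP10, had overlapping intervals. In siLINP1 it was SPRY2, DUSP5, DUSP6, DUSP4, SPRY4, DUSP10, SPRED1, DUSP1, DUSP16 and DUSP8. There DUSP5 and DUSP6 overlapped, as did each neighbouring pair from SPRY4 through DUSP10 and SPRED1 to DUSP1. DUSP4 thus went from the top to rank 4 at a nearly equal level, as SPRY2, DUSP5 and DUSP6 stood above it. The 10 levels summed to 242 RPKM in siNC and 348 RPKM in siLINP1. RPKM is scaled by the total count, which places every log2 fold change 0.082 higher than the size factors do.

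**Figure D2:**
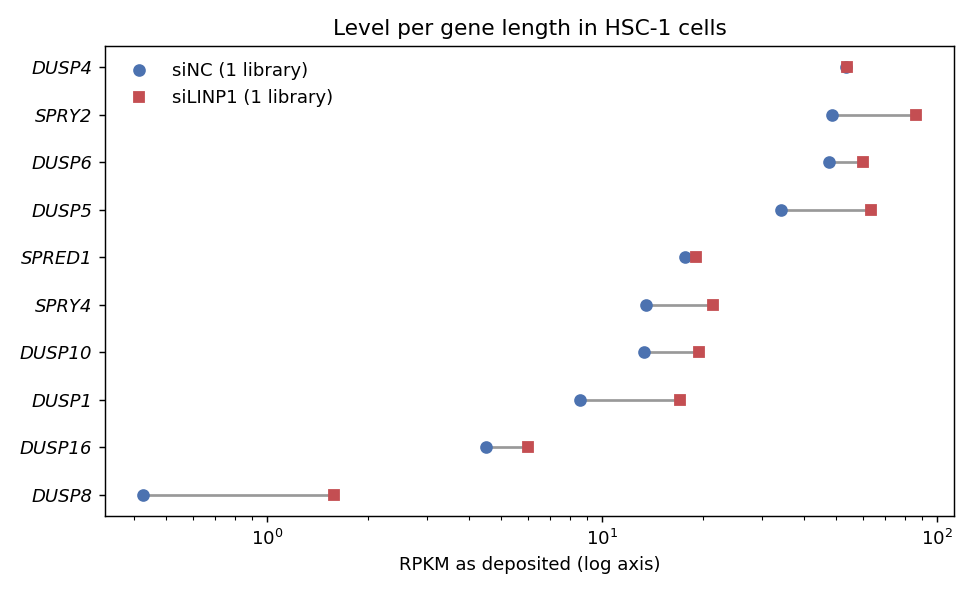
The level of each inhibitor in RPKM (horizontal axis, log scale) is shown for the siNC library (circles) and the siLINP1 library (squares), 1 point for each, with the genes from top to bottom in the order of the siNC levels. The levels span from 0.427 RPKM for DUSP8 to 86.1 RPKM for SPRY2, and the gap between the libraries is widest for DUSP8.

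Depth bears on these values unevenly. The 10 inhibitors ran from 145 reads for DUSP8 to 13470 for DUSP4, both libraries summed, and the interval of DUSP8 (1.25 to 2.39) was far wider than that of DUSP4 (-0.12 to -0.02). At any depth the spread between cultures remains unmeasured.

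**Figure D3:**
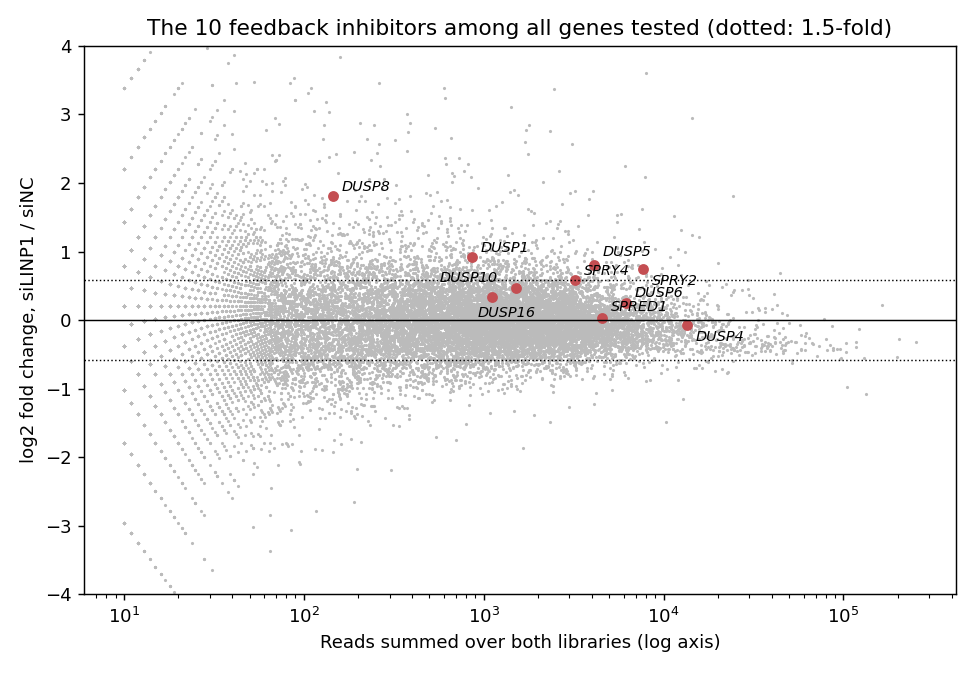
Each grey point is a gene, with reads summed over both libraries on the horizontal axis (log scale) and log2 fold change of siLINP1 over siNC on the vertical axis, for 19768 genes, and the 10 inhibitors are marked by name. The scatter of all genes widens toward few reads, where DUSP8 lies. DUSP5 and SPRY2 lie above 95.6% and 94.6% of the genes with at least 100 reads.

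The kinase genes that the inhibitors restrain were described by the same counts, beside the 14.4% of all genes more than 1.5-fold higher and the 13.0% lower. Of 18 genes of the ERK cascade, from adaptors to ERK, 1 was more than 1.5-fold higher and 0 were lower, with a median log2 fold change of -0.06. The 1 gene was BRAF, a Raf kinase, with 186 reads in siNC and 368 in siLINP1 (1.19, 0.94 to 1.46). Under the size factors the whole interval lay above 0 for 5 of the 18 and below 0 for 8. Of all 19840 genes it lay above 0 for 4557 and below 0 for 5081. Of 17 genes of the JNK and p38 cascades, 3 were more than 1.5-fold higher and 1 lower, with a median of 0.07. Among them MAPK8, which encodes JNK1, had 341 and 510 reads (0.79, 0.59 to 0.99). Of 13 other negative regulators of the ERK cascade, 1 was higher and 0 were lower, with a median of -0.02. This was RASAL2, a Ras GTPase-activating protein, with 2144 and 3566 reads (0.94, 0.87 to 1.02). Scaling by the total count put the medians of the ERK cascade and of the other negative regulators above 0, at 0.026 and 0.063, and placed 4 of the 13 regulators past 1.5-fold higher and 0 of the 17 JNK and p38 genes past it lower.

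Transcripts known to respond to ERK mostly lay higher in siLINP1. Of 15 such genes outside the inhibitor families, 14 had their whole interval above 0 (23.0% of all genes) and 6 were more than 1.5-fold higher (14.4%). Their median log2 fold change was 0.48, and 14 of the 15 had at least 100 reads. Among all genes with that many reads the shares were 28.8% and 8.72%. The list was chosen with earlier results of these data known. EGR1, an immediate early zinc finger factor, had 1874 reads in siNC and 12466 in siLINP1 (2.94, 2.87 to 3.01). MYC had 564 and 908 reads (0.90, 0.74 to 1.05), and HBEGF, a ligand of the EGF receptor, had 251 and 409 reads (0.91, 0.68 to 1.15). The exception was CCND1, which encodes cyclin D1, with 17993 and 14258 reads (-0.13, -0.16 to -0.09), and scaling by total count moves this value toward 0 by 0.082. ETV4 and ETV5, ETS factors that are often read beside DUSP6 and SPRY4 as ERK outputs, had log2 fold changes of 0.10 (0.03 to 0.17) and 0.15 (0.06 to 0.25), beside 0.25 (0.18 to 0.33) for DUSP6 and 0.58 (0.48 to 0.69) for SPRY4. No difference between these lists was tested.

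The 7 family genes outside the list included 6 that were tested, of which 2 were more than 1.5-fold higher and 0 lower, with a median of 0.28. The atypical dual-specificity phosphatases, listed here with STYX and the slingshot genes, lack the MAPK docking domain. Of 18, 14 were tested, and 2 were more than 1.5-fold higher and 2 lower, with a median of 0.21. For both groups the shares of all genes were 14.4% higher and 13.0% lower. DUSP23 was the 1 atypical gene with its whole interval past 1.5-fold, at 456 reads in siNC and 208 in siLINP1 (-0.92, -1.17 to -0.68).

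An siRNA can also lower other transcripts through the seed of its guide strand, so the 3′UTRs were searched for the sites of both siLINP1 oligonucleotides. These are printed as sense strands, with the 7 bases that pair with guide bases 2 to 8 in capitals.
siLINP1_01: ccaactgcgggACTTCAGa
siLINP1_02: cactctccagcCTGCAAGa
The site of siLINP1_01 occurred in the 3′UTRs of 16.4% of 13578 genes and in 1 of the 10 inhibitors, DUSP5. The site of siLINP1_02 occurred in 13.4% of the genes and in 0 of the 10. DUSP5 was 1.75-fold higher in siLINP1, and the part of seed sites in any of these values was not tested.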

How the data were processed

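RNA of HSC-1 cells was sequenced by the authors on an Illumina instrument, with 1 library for siNC and 1 for siLINP1. The authors used Tophat2 for alignment to GRCh37/hg19 and HTSeq for counting, and the submitters' processing notes also name HISAT2 and Bowtie2. Versions, annotation and strand setting are not given in the sources used here. The deposited values are raw read counts per gene. RPKM values were deposited by the authors as well, and each is the count per kilobase of the table's gene length scaled to the total of its library. A further 12 columns of per-sample values in the table were not used.

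Scaling used median-of-ratios size factors. A gene needed 10 reads over the pair of libraries to be kept, and all 44591 rows name genes. Log2 fold changes took no pseudocount. The 95% Clopper-Pearson interval of the share of reads in siLINP1 was turned into a fold, and levels have exact Poisson intervals. These cover counting error only. In list medians a count of 0 was set to a floor of 3 reads. A fold of 1.5 is the study's own fold limit. The study also set a P-value criterion, which was not applied here, so the counts of genes past 1.5-fold are not made by its full rule.

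The members and gene lists were chosen with earlier results of these data known. Named were all 10 inhibitors, LINP1, the 7 other family genes, overlapping genes and pseudogenes, and in each other list at most 4 genes with at least 100 reads whose whole interval lay past 1.5-fold. CCND1, ETV4, ETV5 and the marker genes KRT5, TP63, ITGB4, VIM and THY1 were named after their values were seen. The value of 1 gene of the lists is not reported here. Alternatives were scaling by total count or TMM, pseudocounts of 1 and 5, minimums of 1 and 100 reads, and protein-coding genes only. Summing reads with pseudogenes was added after the data were seen.

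Promoters came from a RefSeq table of GRCh38.p14, and 3′UTRs and exons from the canonical GENCODE transcripts of GRCh37. No coordinate was converted between builds. The siRNA sequences are the study's. The calculations were tested on simulated counts. The software was R 4.3.3 with edgeR 4.0.16 (TMM factors only) and Python 3.11.15 with scipy 1.17.1, pandas 2.3.3, numpy 2.4.6 and matplotlib 3.10.9.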

Additional observations from a re-analysis of the deposited data

How the results depend on the processing

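With 1 library for each group, the spread between cultures is unknown and no replicate could be left out. No paired analysis was possible because each group has 1 library and no result comes from a test. Over 7 other settings, 9 of the 10 inhibitors kept a value above 0 in every one, and DUSP4 alone changed side, at 0.013 under scaling by total count. The 9 could not have changed side, so this is no check of their direction. The other scalings only raised the values, by 0.082 (total count), 0.023 (TMM) and 0.032 (protein-coding genes only). A pseudocount or a minimum of reads cannot change the sign of a gene's value. The count of inhibitors more than 1.5-fold higher was 4, and 5 under scaling by total count, TMM or protein-coding genes only, through SPRY4, and their median ran from 0.53 to 0.61. Summing DUSP8 with its pseudogenes, chosen after seeing the data, moved its log2 fold change from 1.81 to 0.95. The counts over all genes followed the minimum of reads. With at least 1 read, 7048 genes were more than 1.5-fold higher and 6456 lower, of 29515. With at least 100 reads these were 1163 and 903 of 13336, and 263 had the whole interval below a 1.5-fold decrease. Among 14275 protein-coding genes they were 1673 and 1346. Scaling by total count raised every log2 fold change by 0.082 and gave 977 genes with the whole interval above a 1.5-fold increase and 292 below a decrease, beside 790 and 409 under the size factors. It also placed 4 of 13 other negative regulators past 1.5-fold higher in place of 1. In all, 55 of 62 alternative values for the inhibitors' and all-gene summaries stayed within 1.5 times or 0.1 on the log2 scale, and 471 of 491 for single genes and other lists stayed within those limits or their intervals. Part of this was fixed in advance, because the minimums of 1 and 100 reads leave the value of a single gene, and the inhibitors' summaries, unchanged.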
